A study of Homo sapiens with 12 samples.

Results

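The 10 keratin genes KRT5, KRT14, KRT15, KRT6A, KRT16, KRT17, KRT7, KRT8, KRT18 and KRT19 were examined as the basal, stress-induced and simple (luminal) keratins of mammary epithelium. They were chosen by name and, like the marker and gene lists below, with earlier results of these data known. Counts of called genes in these lists are set beside the shares of all tested genes as a description, not as an independent test. Each of the 10 was matched by its Entrez ID to 1 of the 23459 gene rows of the count table. Of the 10 genes, 9 had enough counts to be tested, while KRT19, a simple-epithelial keratin, did not. YAP5SA lowered the 6 basal and stress-induced keratins in cells with an empty vector and raised KRT7. The JUN vector lowered KRT7, KRT8 and KRT18 with or without YAP5SA and raised KRT14. KRT15 fell in response to either manipulation, and it was the tested keratin whose response to YAP5SA differed between JUN and vector cells.

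Keratins form the intermediate filaments of epithelial cells, and every filament pairs a type I with a type II keratin. Basal cells of stratified and mammary epithelium make the type II keratin KRT5 with the type I keratins KRT14 and KRT15. KRT6A (type II) with KRT16 and KRT17 (type I) appears in wounded, proliferating or stressed epithelium, whereas KRT7 and KRT8 (type II) with KRT18 and KRT19 (type I) are typical of simple and luminal epithelium.

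The RNA came from MCF10A, an established, non-tumorigenic human mammary epithelial cell line. All cells carried YAP5SA, a Hippo-insensitive mutant of the coactivator YAP, under the control of doxycycline. The cells were infected with a vector for the AP-1 subunit JUN or with the empty vector, and received either ethanol as solvent (EtOH) or doxycycline at 100 ng/ml (Dox). This gave 4 groups of 3 libraries, named vector or JUN after the construct and EtOH or Dox after the treatment, and the study describes its replicates as biological. No source used here states that the inducible cells were a single clone. No group received doxycycline without the inducible allele, so an effect of doxycycline itself cannot be told apart from that of YAP5SA.

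Total counts per library were 18594867 to 28993487. JUN was at 35.5 to 55.0 CPM (counts scaled to library size) in vector EtOH, 186 to 194 in vector Dox and 1064 to 1399 in the 6 JUN libraries, in accord with the labels. YAP1, whose counts can include the YAP5SA transcript, was at 171 to 191 CPM in vector EtOH and 216 to 273 in vector Dox (log2 fold change 0.40, edgeR adjusted p = 0.0819). In JUN cells YAP1 was at 211 to 249 CPM under EtOH and 208 to 365 under Dox, so those groups overlapped. Whether YAP5SA was induced equally in JUN and vector cells was not tested. Both Dox groups held a library that stood apart. Vector Dox replicate 1 differed from replicates 2 and 3 of its group in gene counts (chi-square divided by its degrees of freedom 60.1 and 47.8, against 9.26 between those 2), and it had the lowest value of its group for 4 of the 9 tested keratins and the highest for 3. Its GC slope was 0.00449 log2 units per 10% GC. JUN Dox replicate 1 had the lowest value of its group for 8 of the 9. Its counts fell with the GC content of genes, by a slope of -0.112 log2 units per 10% GC against its group mean, while replicate 3 of that group had a slope of 0.100. The 9 keratins had transcripts of 55.8% to 62.0% GC, above the median of 48.3% over tested genes. The part of this trend in the keratin values was tested only by the alternatives named beside the results they change.

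Markers fixed for the labelled cell type were present. The 4 epithelial genes EPCAM, CDH1, ESRP1 and GRHL2 were all tested, and their summed level was 368 to 386 CPM in vector EtOH and 358 to 374 in vector Dox, and with the JUN vector 221 to 239 under EtOH and 139 to 167 under Dox. Of 11 luminal markers 5 were tested, and the hormone receptors ESR1 and PGR stayed under 1 CPM in every library. Of 8 markers of blood, vessel and stromal cells 5 were tested, with sums of 38.5 to 43.5, 22.1 to 24.3, 101 to 110 and 62.4 to 87.2 CPM in the same order of groups. Most of that sum was CD68, a lysosomal protein abundant in macrophages. PTPRC, CDH5 and COL3A1 were at 0.150 CPM or less in every library, whereas the other markers of the same cell types were detected. Induction in vector cells lowered all 5 tested markers, where 14.4% of all tested genes were called lower. JUN without induction raised CD68 and DCN and lowered PECAM1, where 20.1% of all tested genes were higher and 18.9% lower. The stromal gene DCN averaged 5.97 and 3.15 CPM in vector cells under EtOH and Dox, and 17.7 and 12.2 CPM in JUN cells (log2 fold change 1.56 with JUN under EtOH, SE 0.30, edgeR adjusted p = 0.00103). In the same order the fibroblast collagen COL1A1 averaged 3.30, 1.52, 3.29 and 1.39 CPM, and the endothelial PECAM1 1.75, 0.0601, 0.471 and 0.0862 CPM. PDGFRB was under 1 CPM in every library. The part of these genes in the keratin results was not tested.

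Compared per transcript length (RPKM, the CPM divided by the kilobases of the canonical transcript), KRT5 and KRT7 were the most abundant of the 10 in vector EtOH, at 2062 ± 41.5 and 2057 ± 125 RPKM (SD, n = 3), with overlapping libraries. KRT17 (1095 ± 109 RPKM) and KRT6A (923 ± 87.0 RPKM) came next and overlapped each other, as did KRT18 (453 ± 30.0 RPKM) and KRT8 (407 ± 33.0 RPKM). KRT14 followed at 128 ± 36.1 RPKM, then KRT16 at 34.4 ± 5.69 and KRT15 at 24.3 ± 7.71 RPKM, which overlapped. KRT19 was last at 0.211 ± 0.188 RPKM. KRT5 was thus far more abundant per length than its type I partners KRT14 and KRT15 in these cells.

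**Figure D1:**
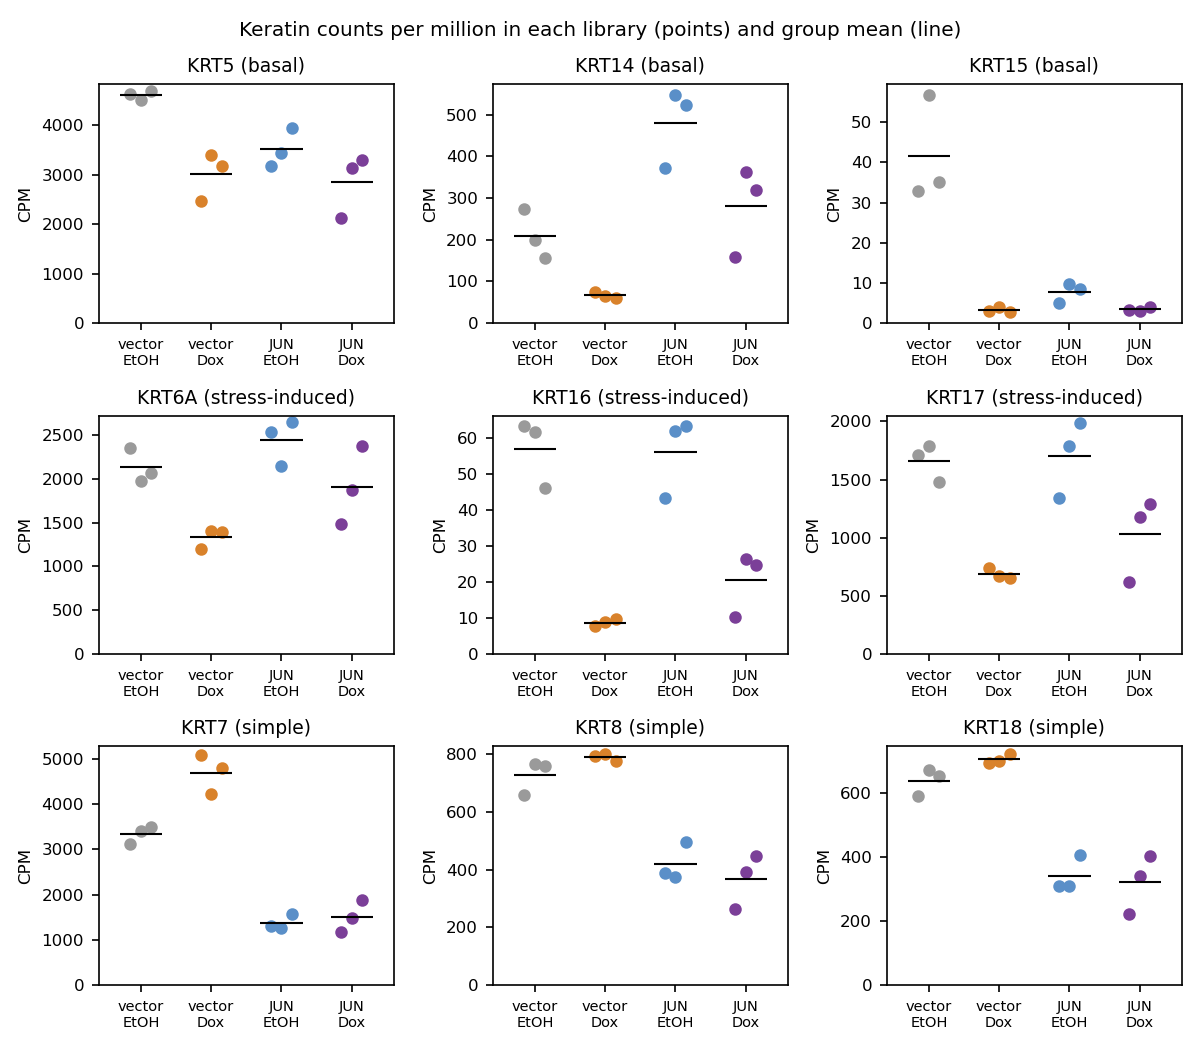
CPM (y axis, linear from 0) of the 9 tested keratins in each of the 12 libraries (points) with the group mean (line), by group on the x axis. Basal and stress-induced keratins are lower in vector Dox than in vector EtOH, and KRT7, KRT8 and KRT18 are lower in all 6 JUN libraries than in all 6 vector libraries.

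KRT5, the basal type II keratin, lies on the minus strand of chromosome 12 (GRCh37, 52908359 to 52914314, Entrez gene 3852). Its level was 4634, 4514 and 4697 CPM in the vector EtOH libraries and 2478, 3407 and 3171 in vector Dox, and with the JUN vector 3173, 3438 and 3952 under EtOH and 2121, 3131 and 3308 under Dox. All 3 vector EtOH libraries lay above the other 9. YAP5SA lowered KRT5 in vector cells by 1.53-fold (log2 fold change -0.61, SE 0.17, edgeR quasi-likelihood test with Benjamini-Hochberg adjustment, adjusted p = 0.0135), and without vector Dox replicate 1, the lowest of its group, the change was -0.50 (edgeR adjusted p = 0.0425). In JUN cells the libraries of the 2 treatments overlapped (log2 fold change -0.30, SE 0.17, edgeR adjusted p = 0.235). JUN EtOH lay below vector EtOH in 3 of 3 libraries, but the difference of -0.39 (SE 0.17) missed the threshold (edgeR adjusted p = 0.0807). It passed in 7 of 22 alternatives, among them DESeq2 (adjusted p = 0.0475) and edgeR without JUN Dox replicate 1 (adjusted p = 0.0207) or vector Dox replicate 1 (adjusted p = 0.0495). Under YAP5SA the 2 cell types overlapped, with a log2 difference of -0.08 (95% interval -0.41 to 0.25, edgeR adjusted p = 0.739).

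The 250 bases before the KRT5 start site are shown because KRT5 was the most abundant basal keratin and fell on induction. They were read from RefSeq on GRCh38.p14, minus strand, and 2 of the 10 keratins, KRT5 and KRT8, had an entry there. Capitals mark ATAAAA, an element resembling a TATA box that was noticed on reading the window.
KRT5 promoter, chr12:52520395-52520644: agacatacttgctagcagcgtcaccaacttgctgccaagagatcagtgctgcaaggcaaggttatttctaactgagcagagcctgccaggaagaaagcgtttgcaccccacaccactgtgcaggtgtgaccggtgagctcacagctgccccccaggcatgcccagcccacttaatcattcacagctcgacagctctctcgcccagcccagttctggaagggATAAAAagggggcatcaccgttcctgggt
The element spans 29 to 24 bases before the start, and ATAAAA occurs on either strand in 14.8% of 35116 promoter windows of the same length. Neither the AP-1 motif TGANTCA (6.57% of windows) nor the TEAD motif GGAATG (11.9% of windows) occurs in this window on either strand. The absence of these letters here says nothing on binding of either factor at KRT5 or elsewhere.

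KRT14, the basal type I partner of KRT5, lies on the minus strand of chromosome 17 (GRCh37, 39738531 to 39743147, Entrez gene 3861). It measured 273, 198 and 156 CPM in vector EtOH and 75.1, 65.5 and 59.4 in vector Dox, and with the JUN vector 372, 548 and 523 under EtOH and 160, 363 and 319 under Dox. JUN EtOH held the highest libraries and vector Dox the lowest, and neither group overlapped any other. JUN raised KRT14 by 2.30-fold without YAP5SA (log2 fold change 1.20, SE 0.26, edgeR adjusted p = 0.00229) and by 4.21-fold with it (log2 fold change 2.07, SE 0.27, edgeR adjusted p = 3.34e-05). YAP5SA lowered KRT14 by 3.14-fold in vector cells (log2 fold change -1.65, SE 0.26, edgeR adjusted p = 0.000257). The decrease in JUN cells was 1.71-fold (log2 fold change -0.78, SE 0.26, edgeR adjusted p = 0.0422) and kept its call in 12 of 22 alternatives. Leaving out vector EtOH replicate 2, vector Dox replicate 1 or 3, JUN EtOH replicate 2 or 3, or JUN Dox replicate 1 or 3 each ended that call, with log2 fold changes from -0.88 to -0.50 and edgeR adjusted p = 0.0526 to 0.146. The 2 inductions differed by 0.87 (SE 0.36), which missed the threshold (edgeR adjusted p = 0.447).

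KRT15, a basal type I keratin linked to epithelial progenitors, lies near KRT14 on the minus strand of chromosome 17 (GRCh37, 39669997 to 39678781, Entrez gene 3866). It had 32.9, 56.7 and 35.0 CPM in vector EtOH and 2.88, 3.92 and 2.77 in vector Dox, and with the JUN vector 5.06, 9.69 and 8.35 under EtOH and 3.16, 3.03 and 3.98 under Dox. The 3 vector EtOH libraries lay far above the rest, and the Dox groups overlapped. These levels rest on 781 to 1137 counts per library in vector EtOH, but on only 63 to 112 in the 6 Dox libraries. YAP5SA lowered KRT15 by 13.0-fold in vector cells, the largest change of any of the 9 keratins in a pairwise comparison (log2 fold change -3.70, SE 0.26, edgeR adjusted p = 8.37e-08). In JUN cells the decrease was 2.26-fold (log2 fold change -1.17, SE 0.26, edgeR adjusted p = 0.00537). JUN alone lowered KRT15 by 5.38-fold (log2 fold change -2.43, SE 0.24, edgeR adjusted p = 2.59e-06), whereas under YAP5SA the JUN and vector cells differed by 0.10 on the log2 scale (95% interval -0.46 to 0.66, edgeR adjusted p = 0.809). The response to YAP5SA was less negative in JUN than in vector cells by 2.53 (SE 0.37, edgeR adjusted p = 0.002), a difference called in 21 of 21 alternatives. JUN therefore had opposite signs on KRT14 and KRT15 without YAP5SA, although both are basal type I keratins.

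KRT6A, the type II keratin of activated epithelium, lies beside KRT5 on chromosome 12 (GRCh37, 52880960 to 52887041, minus strand, Entrez gene 3853). Its libraries held 2356, 1972 and 2061 CPM in vector EtOH and 1203, 1407 and 1393 in vector Dox, and with the JUN vector 2536, 2142 and 2651 under EtOH and 1489, 1872 and 2370 under Dox. Vector Dox lay below every other library. YAP5SA lowered it by 1.6-fold in vector cells (log2 fold change -0.67, SE 0.16, edgeR adjusted p = 0.00512). In JUN cells the treatments overlapped (log2 fold change -0.35, SE 0.16, edgeR adjusted p = 0.133), and the difference passed without JUN Dox replicate 3 (-0.54, edgeR adjusted p = 0.0248) and with a term for the GC trend (edgeR adjusted p = 0.0285). With YAP5SA, JUN cells had 1.43-fold more KRT6A than vector cells (log2 fold change 0.52, SE 0.16, edgeR adjusted p = 0.021), a call lost without vector Dox replicate 1 (0.46, edgeR adjusted p = 0.0571) or JUN Dox replicate 3 (0.33, edgeR adjusted p = 0.0969). Without YAP5SA the log2 difference was 0.20 (95% interval -0.11 to 0.51, edgeR adjusted p = 0.341). Of its transcript 39.2% of 50-base words also occur in other genes, chiefly KRT6C, so its counts are shared to an unknown degree. KRT6C stood at 0.108 to 0.124 counts per KRT6A count in all 12 libraries.

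KRT16, a type I partner of KRT6A, lies on chromosome 17 (GRCh37, 39766030 to 39772151, minus strand, Entrez gene 3868). It stood at 63.2, 61.7 and 46.2 CPM in vector EtOH and 7.76, 8.83 and 9.58 in vector Dox, and with the JUN vector 43.2, 61.9 and 63.4 under EtOH and 10.3, 26.3 and 24.6 under Dox. The EtOH groups overlapped each other and lay above all Dox libraries, and JUN Dox lay above vector Dox. YAP5SA lowered KRT16 by 6.53-fold in vector cells (log2 fold change -2.71, SE 0.27, edgeR adjusted p = 3.5e-06) and by 2.73-fold in JUN cells (log2 fold change -1.45, SE 0.26, edgeR adjusted p = 0.000944). The difference between these inductions, 1.26 (SE 0.37), missed the threshold (edgeR adjusted p = 0.148). It passed under DESeq2 (adjusted p = 0.0371), with a GC trend term (edgeR adjusted p = 0.0343) and without JUN Dox replicate 1 (1.58, edgeR adjusted p = 0.00254). JUN cells held 2.35-fold more KRT16 under YAP5SA (log2 fold change 1.23, SE 0.27, edgeR adjusted p = 0.00285), against a log2 difference of -0.02 without it (95% interval -0.51 to 0.46, edgeR adjusted p = 0.951). Of the 50-base words of KRT16 21.8% also occur in other genes, KRT14 among them. The share was 24.2% for KRT14, with KRT16 first among the other genes, and 18.3% for KRT17. The part of shared reads in the values of these 3 genes was not tested.

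KRT17, which pairs with KRT6 keratins in activated epithelium and is also made by basal cells, lies next to KRT16 on chromosome 17 (GRCh37, 39775694 to 39781094, minus strand, Entrez gene 3872). Its values were 1715, 1793 and 1476 CPM in vector EtOH and 737, 675 and 657 in vector Dox, and with the JUN vector 1343, 1786 and 1983 under EtOH and 622, 1180 and 1288 under Dox. The EtOH groups again lay above all Dox libraries, while JUN Dox replicate 1 fell below all 3 vector Dox libraries. YAP5SA lowered KRT17 by 2.41-fold in vector cells (log2 fold change -1.27, SE 0.22, edgeR adjusted p = 0.000479). The 1.65-fold decrease in JUN cells (log2 fold change -0.73, SE 0.22, edgeR adjusted p = 0.0259) was lost without JUN EtOH replicate 2 (-0.69, edgeR adjusted p = 0.0831) or replicate 3 (-0.60, edgeR adjusted p = 0.101). JUN cells under YAP5SA held 1.49-fold more KRT17 (log2 fold change 0.58, SE 0.22), a call at the threshold (edgeR adjusted p = 0.049) with overlapping groups that held in 9 of 22 alternatives. Over the alternatives its edgeR or DESeq2 adjusted p ran from 0.0008 to 0.188. It was lost on leaving out any 1 of the vector EtOH libraries, of the vector Dox libraries, of JUN EtOH replicates 2 and 3, or of JUN Dox replicates 2 and 3, where the log2 difference was 0.39 to 0.64.

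KRT7, a type II keratin of simple and glandular epithelium, lies on the plus strand of chromosome 12 (GRCh37, 52626304 to 52645970, Entrez gene 3855) and shares exon sequence with the antisense gene KRT7-AS, so reads of both cannot be told apart without strand. Its level was 3113, 3413 and 3500 CPM in vector EtOH and 5076, 4217 and 4791 in vector Dox, and with the JUN vector 1294, 1269 and 1577 under EtOH and 1169, 1480 and 1873 under Dox. Vector Dox was highest, vector EtOH next, and both lay above all 6 JUN libraries. YAP5SA raised KRT7 by 1.40-fold in vector cells (log2 fold change 0.49, SE 0.16, edgeR adjusted p = 0.0321), in 3 of 3 libraries. Leaving out any 1 vector EtOH library, or vector Dox replicate 1 or 3, ended this call, with log2 fold changes of 0.42 to 0.52 and edgeR adjusted p = 0.0685 to 0.11. In JUN cells the log2 change was 0.13 (95% interval -0.19 to 0.44, edgeR adjusted p = 0.638). JUN lowered KRT7 by 2.42-fold without YAP5SA (log2 fold change -1.28, SE 0.16, edgeR adjusted p = 3.41e-05) and by 3.11-fold with it (log2 fold change -1.64, SE 0.16, edgeR adjusted p = 3.09e-06).

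KRT8 and KRT18, the type II and type I keratins that pair in simple epithelium, lie next to each other on chromosome 12 (GRCh37, KRT8 53290971 to 53343738 on the minus strand, Entrez gene 3856; KRT18 53342655 to 53346690 on the plus strand, Entrez gene 3875). KRT8 measured 659, 764 and 757 CPM in vector EtOH and 794, 799 and 775 in vector Dox, and with the JUN vector 389, 375 and 496 under EtOH and 262, 391 and 446 under Dox. KRT18 measured 592, 673 and 655 CPM in vector EtOH and 694, 703 and 722 in vector Dox, and with the JUN vector 310, 309 and 408 under EtOH and 223, 342 and 405 under Dox. For both genes the 6 vector libraries lay above the 6 JUN libraries, and the JUN groups overlapped each other. JUN lowered KRT8 by 1.73-fold (log2 fold change -0.79, SE 0.17, edgeR adjusted p = 0.00193) and KRT18 by 1.87-fold (log2 fold change -0.90, SE 0.18, edgeR adjusted p = 0.00111) without YAP5SA. With YAP5SA the decreases were 2.15-fold for KRT8 (log2 fold change -1.11, SE 0.17, edgeR adjusted p = 0.000142) and 2.18-fold for KRT18 (log2 fold change -1.13, SE 0.18, edgeR adjusted p = 0.000197). YAP5SA in vector cells gave log2 changes of 0.12 for KRT8 (95% interval -0.20 to 0.44, edgeR adjusted p = 0.634) and 0.14 for KRT18 (95% interval -0.20 to 0.48, edgeR adjusted p = 0.585), although 3 of 3 libraries lay above vector EtOH for each. Their gene models overlap at the ends on opposite strands. Of the 50-base words of KRT18 54.3% occur in other genes, led by KRT8 (23.9%) and followed by KRT18 pseudogenes. For KRT8 the share was 39.2%, led by its own pseudogenes. Adding the counts of those pseudogenes that have a row in the count table to each parent gene changed none of their calls. Over all keratins this setting added 9 rows of copies and pseudogenes, KRT6B and KRT6C among them. Reads on pseudogenes without a row were not covered.

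KRT19, a type I keratin of luminal cells (GRCh37, chromosome 17, 39679869 to 39684560, minus strand, Entrez gene 3880), had 0 to 10 counts per library, or at most 0.499 CPM. A count of 3, taken as the floor, corresponds to 0.107 to 0.150 CPM in these libraries and covers counting error only. KRT19 did not pass the count filter of the main fit, so no test of it is reported. Its counts were 10, 10 and 0 in vector EtOH and 5, 5 and 2 in vector Dox. With the JUN vector they were 0, 0 and 3 under EtOH and 1, 1 and 7 under Dox. Whether the groups differ cannot be judged at this depth.

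**Figure D2:**
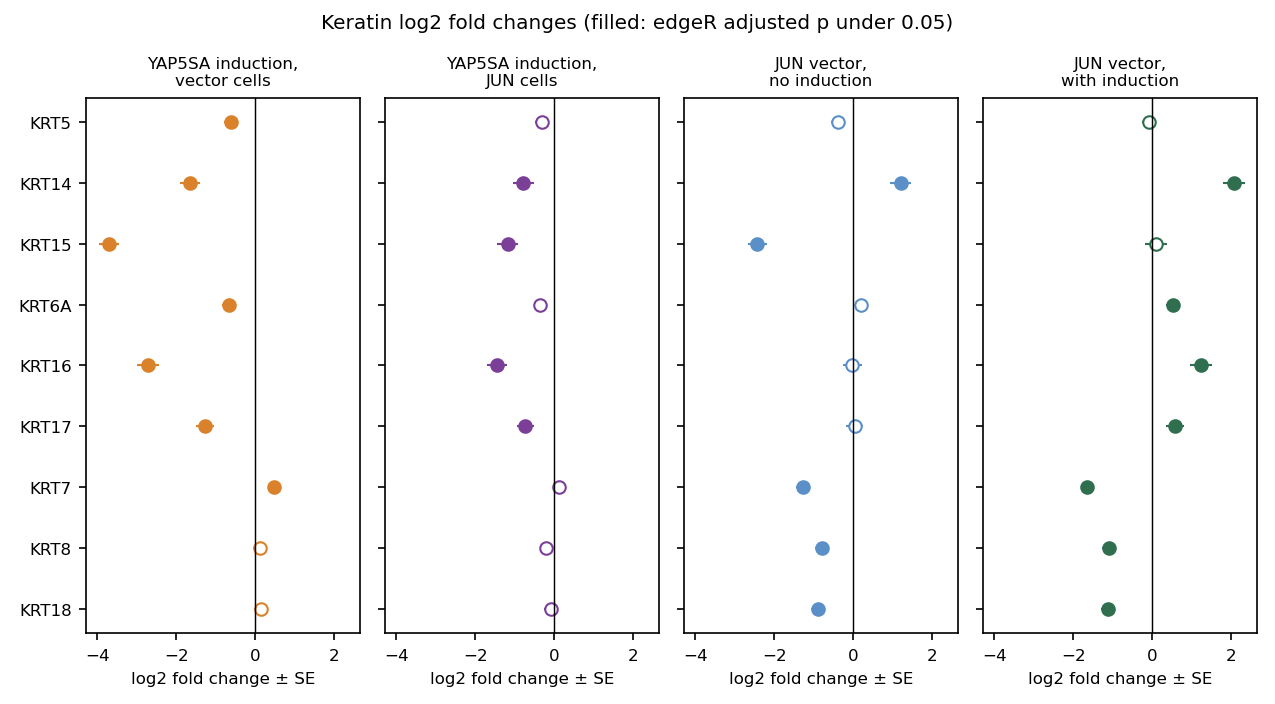
Log2 fold changes (x axis, bars ± SE) of the 9 tested keratins in the 4 pairwise comparisons, with filled points where the edgeR adjusted p is under 0.05. The KRT15 change under YAP5SA moves from -3.70 in vector cells to -1.17 in JUN cells, and KRT7, KRT8 and KRT18 lie left of 0 in both JUN comparisons.

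YAP5SA induction in vector cells called 7 of the 9 tested keratins, 1 higher and 6 lower, where 30.1% of all 14775 tested genes were called (15.6% higher and 14.4% lower). The median log2 fold change of the 9 was -0.67, against 0.01 over all tested genes. All 9 had groups that did not overlap, as did 43.9% of all tested genes. Induction in JUN cells called 4 of 9, all lower (background 21.4%, with 11.2% higher and 10.3% lower), namely KRT14, KRT15, KRT16 and KRT17. None of the 9 was called higher there by edgeR, at an unadjusted p under 0.05 or by DESeq2. The median was -0.35, and 4 of 9 had groups that did not overlap, against 39.3% of all tested genes. In each bulk sample a lower level could come from fewer cells that make a keratin or from less of its RNA per cell, which cannot be told apart here.

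The JUN vector without induction called 5 of 9 (background 39%, with 20.1% higher and 18.9% lower), with KRT14 higher and KRT15, KRT7, KRT8 and KRT18 lower. Groups did not overlap for 6 of 9, against 57.8% of all tested genes. With induction 7 of 9 were called (background 35.6%, with 18.4% higher and 17.2% lower). There KRT14, KRT6A, KRT16 and KRT17 were higher and KRT7, KRT8 and KRT18 lower in JUN cells. Groups did not overlap for 6 of 9, against 43.4% of all tested genes. Without vector Dox replicate 1 or JUN Dox replicate 3 the count was 5. The JUN comparisons and the inductions share groups with each other, so their values are given side by side and are not independent. In the interaction, 1 of 9 was called (background 1.12%, with 0.291% higher and 0.826% lower), and that gene was KRT15.

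The summed level of the 10 keratins was 13383 to 13447 CPM in vector EtOH and 11067 to 11581 in vector Dox, and with the JUN vector 9465 to 11661 under EtOH and 6059 to 10038 under Dox. Vector EtOH lay above all other libraries. As a share of their summed RPKM, KRT7 made up 28.6% ± 1.69 in vector EtOH and 46.1% ± 4.04 in vector Dox, and with the JUN vector 15.7% ± 0.685 under EtOH and 21.6% ± 1.61 under Dox (SD, n = 3). The share of KRT5 was 28.7% ± 0.796, 21.5% ± 3.50, 29.1% ± 0.275 and 29.6% ± 1.28 in the same order. KRT14 made up 1.78% ± 0.507, 0.652% ± 0.0844, 5.43% ± 0.897 and 3.88% ± 0.867. Among these 10, KRT7 was thus the leading keratin per length in every vector Dox library, while KRT5 led in JUN EtOH. In JUN Dox the libraries of KRT5 and KRT7 overlapped in RPKM.

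**Figure D3:**
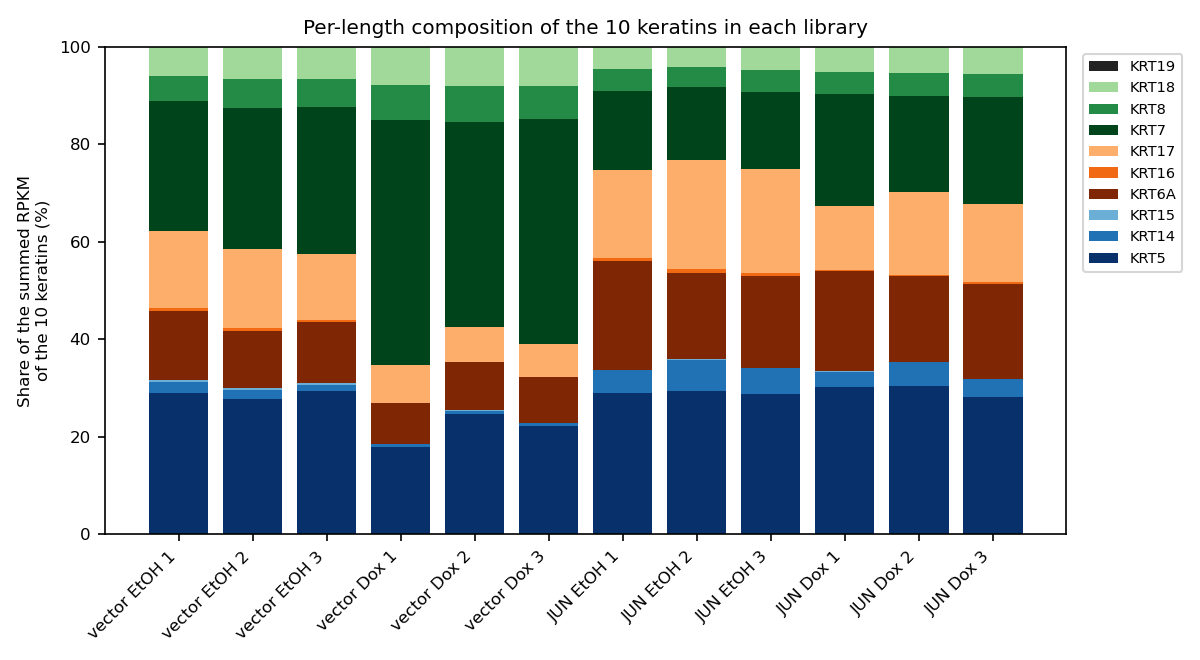
Share (y axis, percent) of each keratin in the summed RPKM of the 10 keratins, as stacked bars for each of the 12 libraries (x axis), with basal keratins in blue, stress-induced in orange and simple in green. KRT7 averages 46.1% in vector Dox against 28.6% in vector EtOH, and 15.7% in JUN EtOH.

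Ratios of counts between 2 keratins within a library do not depend on the scaling of libraries. KRT14 stood at 0.0589, 0.0439 and 0.0333 counts per KRT5 count in vector EtOH and 0.0303, 0.0192 and 0.0187 in vector Dox, and with the JUN vector 0.117, 0.159 and 0.132 under EtOH and 0.0753, 0.116 and 0.0964 under Dox. All 6 JUN libraries lay above all 6 vector libraries. For KRT7 per KRT5 the libraries gave 0.672, 0.756 and 0.745 in vector EtOH and 2.05, 1.24 and 1.51 in vector Dox, and with the JUN vector 0.408, 0.369 and 0.399 under EtOH and 0.551, 0.473 and 0.566 under Dox. The 4 groups did not overlap in this ratio of a simple to a basal keratin. KRT18 per KRT8 spanned a narrow range of 0.796 to 0.932 over the 12 libraries, which includes any reads they share. Across the 12 libraries the log2 CPM of KRT8 and KRT18 had a Pearson r of 0.996, and KRT16 and KRT17 one of 0.977, as a description over libraries that share groups, depth and GC trend.

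The other keratins followed several patterns. Of 45 further keratin genes counted, 10 were tested, of which 2 rose and 2 fell on induction in vector cells (15.6% and 14.4% of all tested genes). KRT6B and KRT6C, close copies of KRT6A, fell with it (log2 fold changes -0.72 and -0.70, edgeR adjusted p = 0.00343 and 0.00593), with the limit on shared reads given above. The JUN vector without induction raised 3 of the 10 and lowered 5 (20.1% and 18.9% of all tested genes). Among them KRT6B rose by 0.81 (SE 0.16, edgeR adjusted p = 0.00119), whereas KRT6C (0.24, SE 0.17, edgeR adjusted p = 0.279) and KRT6A were not called. KRT6B stood at 0.0708 to 0.0766 counts per KRT6A count in vector EtOH and 0.112 to 0.115 in JUN EtOH. KRT80, a type II keratin, was at 58.3 to 68.8 CPM in vector EtOH, 90.2 to 99.3 in vector Dox and 3.83 to 6.64 in the 6 JUN libraries. JUN lowered it by 3.74 on the log2 scale without YAP5SA (SE 0.16, edgeR adjusted p = 8.99e-10). KRT34, a hair keratin, was at 0.249 to 0.456 CPM in vector EtOH and 3.02 to 5.00 in vector Dox, and with the JUN vector 2.23 to 3.70 under EtOH and 30.9 to 40.5 under Dox. Both YAP5SA (log2 fold change 3.43, SE 0.31, edgeR adjusted p = 9.78e-07) and JUN (3.04, SE 0.32, edgeR adjusted p = 4.4e-06) raised it, and in JUN cells YAP5SA raised it by 3.58 (SE 0.20, edgeR adjusted p = 4.17e-08). The hair keratins KRT81 and KRT86 had 0.965 to 0.968 KRT81 counts per KRT86 count in all 12 libraries, so they were not separated. KRT81 was at 8218 to 11318 CPM in the vector libraries and 3572 to 5624 in the JUN libraries (log2 fold change -0.92 without YAP5SA, SE 0.18, edgeR adjusted p = 0.00124).

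Keratin filaments attach to desmosomes between cells and to hemidesmosomes at the basement membrane. All 12 desmosome genes were tested, and YAP5SA in vector cells raised 1 and lowered 8 of them, where 15.6% of all tested genes were higher and 14.4% lower. The cadherin DSG3 fell by 1.97 (SE 0.12, edgeR adjusted p = 2.81e-08), the plakin PPL by 1.93 (SE 0.24, edgeR adjusted p = 2.86e-05), and plakoglobin (JUP) by 0.94 (SE 0.19, edgeR adjusted p = 0.00136) on the log2 scale. Desmoplakin (DSP), which binds keratins directly, fell by 0.86 (SE 0.20, edgeR adjusted p = 0.00512). It was 230 CPM in vector Dox replicate 1, against 455 and 443 in the other two libraries of that group. In JUN cells induction raised 1 and lowered 7 (11.2% and 10.3% of all tested genes). The JUN vector without induction raised 4 and lowered 4 (20.1% and 18.9% of all tested genes), with PPL at -2.25 (SE 0.24, edgeR adjusted p = 6.82e-06) and the cadherin DSC2 at 0.99 (SE 0.14, edgeR adjusted p = 0.000104), and with induction 5 were higher and 4 lower (18.4% and 17.2% of all tested genes). The median log2 fold change of the 12 was -0.57 and -0.57 in the inductions, and 0.17 and 0.27 in the JUN comparisons.

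All 8 hemidesmosome genes examined were tested. The JUN vector without induction raised 5 and lowered 1 (20.1% and 18.9% of all tested genes), with a median log2 fold change of 0.62. The collagen COL17A1 rose by 1.33 (SE 0.20, edgeR adjusted p = 0.000134) and the laminin chain LAMB3 by 1.30 (SE 0.12, edgeR adjusted p = 1.24e-06). With induction 5 were higher in JUN cells (18.4% of all tested genes), and none was lower by edgeR, at an unadjusted p under 0.05 or by DESeq2. YAP5SA in vector cells lowered 3 by edgeR (14.4% of all tested genes) and raised none by any of these counts, led by the integrin ITGB4 at -1.36 (SE 0.18, edgeR adjusted p = 3.76e-05). The plot of junction genes shows these values gene by gene.

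**Figure D4:**
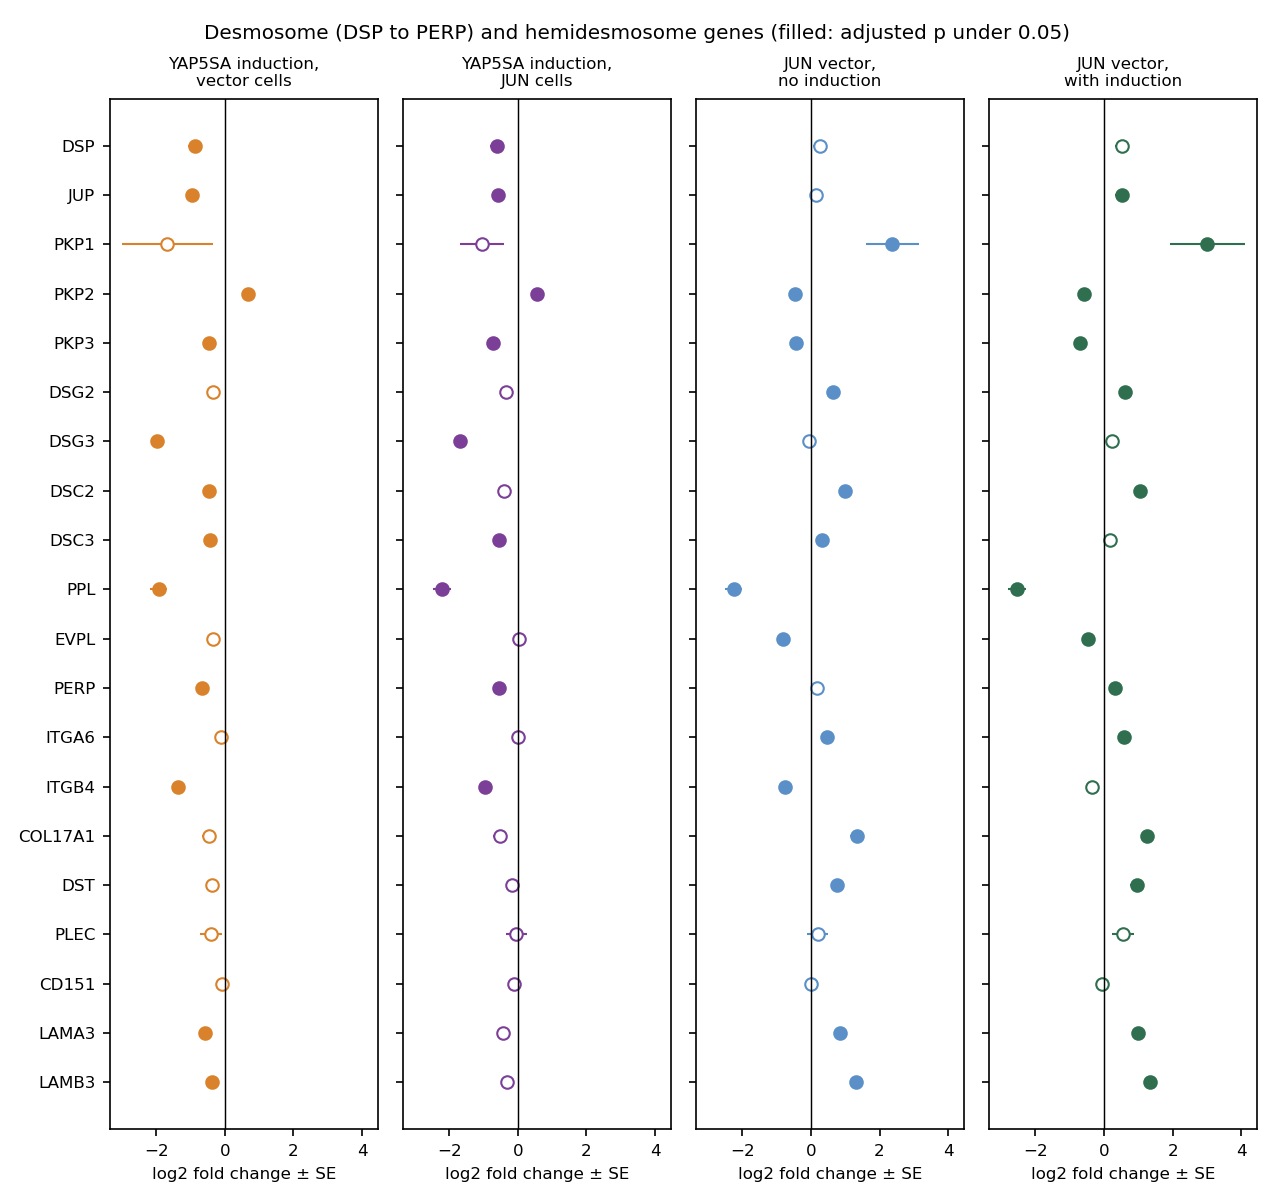
Log2 fold changes (x axis, bars ± SE) of 12 desmosome genes (DSP to PERP) and 8 hemidesmosome genes (ITGA6 to LAMB3) in the 4 pairwise comparisons, with filled points where the edgeR adjusted p is under 0.05. Most desmosome genes lie left of 0 in both inductions, and LAMA3, LAMB3 and COL17A1 lie right of 0 in both JUN comparisons.

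Of 8 genes for factors known to control keratin genes 7 were tested. YAP5SA in vector cells lowered 3 and raised 1 (14.4% and 15.6% of all tested genes), whereas JUN without induction raised 4 and lowered 1 (20.1% and 18.9% of all tested genes). TP63, which encodes the p63 factor that maintains basal cells, was at 15.7, 13.6 and 13.5 CPM in vector EtOH and 5.36, 7.03 and 5.37 in vector Dox, and with the JUN vector 28.3, 30.0 and 23.9 under EtOH and 15.6, 15.1 and 11.8 under Dox. In vector cells it fell on induction by 1.27 (SE 0.15, edgeR adjusted p = 1.9e-05), and in JUN cells by 0.96 (SE 0.14, edgeR adjusted p = 0.000225). JUN raised it by 0.94 (SE 0.14, edgeR adjusted p = 0.000133) without induction. By group mean, JUN EtOH was highest and vector Dox lowest for TP63 and KLF5, as for KRT14, KRT6A and KRT17. Vector EtOH was highest for KRT5, KRT15 and KRT16, and JUN Dox was lowest for KRT5. A link between these factors and the keratins was not tested. KLF5 fell by 0.88 (SE 0.12, edgeR adjusted p = 7.2e-05) on induction in vector cells, and the AP-2 factor gene TFAP2C rose by 0.58 (SE 0.11, edgeR adjusted p = 0.00105).

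Lineage markers outside the keratins were counted in the same way, against the shares of all tested genes of 15.6% higher and 14.4% lower on induction in vector cells and 20.1% and 18.9% with JUN without induction. All 4 tested basal markers of 5 were lower on induction in vector cells, and 2 were higher with JUN without induction, SNAI2 by 2.74 (SE 0.15, edgeR adjusted p = 6.75e-09) and TP63. The other 2, TRIM29 (-0.46, SE 0.18, edgeR adjusted p = 0.057) and CDH3 (-0.13, SE 0.09, edgeR adjusted p = 0.282), were not called there. Both had all 3 JUN EtOH libraries below vector EtOH, and DESeq2 called 2 of the basal markers higher and 2 lower. Of the 5 tested luminal markers, CD24 and GATA3 rose and MUC1 fell on induction in vector cells. MUC1, a mucin of luminal cells, fell by 1.99 (SE 0.25, edgeR adjusted p = 2.44e-05), while KRT7 rose in the same libraries. JUN without induction raised CD24 by 1.72 (SE 0.11, edgeR adjusted p = 4.73e-08) and lowered MUC1, GATA3 and FOXA1, and it lowered 2 of the 4 epithelial genes, EPCAM by 1.76 (SE 0.12, edgeR adjusted p = 5.83e-08) and ESRP1. Of 4 tested myoepithelial markers 1 rose on induction in vector cells and 1 fell with JUN without induction. Of 13 other intermediate filament genes 5 were tested, and VIM, the vimentin gene of mesenchymal and cultured cells, fell by 0.82 (SE 0.15, edgeR adjusted p = 0.00103) on induction in vector cells and rose by 0.80 (SE 0.15, edgeR adjusted p = 0.001) with JUN alone.

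The genes whose log2 CPM most resembled the keratins over the 12 libraries were ranked by Pearson r among 11383 genes averaging 5 CPM or more, as a description. LGALS3 (r = 0.978), RNF103 (0.970) and PLD3 (0.962) were closest to the mean of KRT5 and KRT14. KRT5 and KRT14 themselves had an r of only 0.270, so their mean is not a profile common to both. RHOU (r = 0.988), JUP (0.982) and GXYLT2 (0.977) were closest to the mean of KRT6A, KRT16 and KRT17. For KRT8 and KRT18 these were CMTM8 (r = 0.984), MISP (0.984) and CHID1 (0.983), and for KRT15 PRR15L (0.984), PLEKHA4 (0.976) and CDC42EP4 (0.974). JUP, one of the fixed desmosome genes, ran from 1356 CPM on average in vector Dox to 2896 in JUN EtOH, which were also the lowest and highest groups of KRT6A and KRT17.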

How the data were processed

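Poly(A) RNA was sequenced single-end. The authors deposited raw counts per Entrez gene, made by trimming with Cutadapt (4.2 in the submitters' processing notes), alignment to hg19 with Bowtie2 (2.3.5.1 there) at default settings and countOverlaps of GenomicRanges in R. The annotation and any use of strand are not given in the sources used here. Bowtie2 does not split reads across introns and places equal matches at random, so junction reads are largely lost and near-identical keratins share counts.

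From these counts, CPM used TMM library sizes, and 14775 genes passed filterByExpr (minimum count 10, minimum total 15). One edgeR 4.0.16 quasi-likelihood model (R 4.3.3, robust) over 12 libraries by group gave 5 contrasts, with Benjamini-Hochberg adjustment over all tested genes and calls under 0.05. Standard errors (SE) were taken from the F statistic. The fit was tested on simulated data. Positions are from GENCODE v44lift37 on GRCh37. DESeq2 1.42.0 and other settings were alternatives. Members, marker and gene lists were chosen with earlier results of these data known. Examples from lists were the called genes of largest change with a mean of at least 5 CPM. A further gene of these lists is not reported here.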

Additional observations from a re-analysis of the deposited data

Results flagged for a closer look

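The response of KRT15 to YAP5SA differed between the cell types by a direct test of that difference. It fell by 3.70 (log2) in vector cells and by 1.17 in JUN cells, a difference of 2.53 (SE 0.37, edgeR adjusted p = 0.002). Its level under Dox was 2.77 to 3.92 CPM in vector cells and 3.03 to 3.98 CPM in JUN cells, so the groups overlapped there, while under EtOH it was 32.9 to 56.7 CPM in vector cells and 5.06 to 9.69 CPM in JUN cells.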

How the results depend on the processing

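Of 45 pairs of a tested keratin and a comparison, 30 kept their direction and side of the threshold in all alternatives, 5 lost a call, 3 gained one and 7 changed sign without ever being called. Leaving out 1 library at a time gave 6 to 7 called keratins for induction in vector cells, 5 to 6 for JUN without induction, 2 to 4 for induction in JUN cells, 5 to 7 for JUN with induction and 1 to 2 for the interaction. Induction in JUN cells fell to 2 calls without JUN EtOH replicate 2 or 3, and also with only the libraries of the comparison, where KRT14 and KRT17 were lost. The interaction rose to 2 calls, KRT15 and KRT16, under DESeq2, with a GC trend term, with the replicate block and GC trend term together, and without JUN Dox replicate 1. The cause was not tested. Fits that each left out 1 library crossed 0 for 7 uncalled values. These log2 values ran from -0.15 to 0.14 for KRT16 and -0.087 to 0.18 for KRT17 (JUN without induction), -0.059 to 0.28 for KRT7 and -0.28 to 0.12 for KRT18 (induction in JUN cells), -0.20 to 0.097 for KRT5 and -0.041 to 0.28 for KRT15 (JUN with induction), and -0.42 to 0.0011 for KRT18 (interaction).

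Whether replicate numbers pair the libraries was left unsettled, since the groups differed in this. Deviations of same-numbered libraries correlated at -0.258 to 0.466, over 0.1 in 7 of 18 pairs. Between vector EtOH and JUN EtOH they correlated at 0.0743 to 0.153, against -0.107 to 0.0169 for different numbers. Between vector EtOH and vector Dox the values were -0.258 to 0.106, against -0.157 to 0.315 for different numbers. With the replicate number as a block the counts of called keratins were 7, 6, 3, 6 and 1, against 7, 5, 4, 7 and 1. Depth limits KRT19 and, less so, KRT15 in the Dox groups.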
